A study of Gallus gallus with 12 samples.

Results

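The genes described here build and assemble the motile cilium of the hen's utero-vaginal junction (UVJ), the part of the oviduct that stores sperm. They were the array symbols made of DNAH, DNAI, DNAL, DNAAF, TEKT, RSPH, IFT, SPAG or SPEF and a number, together with HYDIN, LRRC23, CCDC39, CCDC40 and FOXJ1. The dynein assembly factors listed under other names, DYX1C1, LRRC50, HEATR2 and LRRC6, stand among the other ciliary genes below. So do intraflagellar transport genes under other names, TTC21B, WDR34 and WDR35 among them. The rule found 40 genes among 18407 symbols, carried by 43 of the 37374 features, and each gene was read from its brightest feature. CCDC39, DNAH1 and IFT80 had a further feature each. The rule reads only the name, so it also took SPAG4, a protein of the nuclear envelope, and SPAG9, a scaffold of kinase signalling, which are not part of the axoneme.

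Transcripts were measured in 12 White Leghorn hens, 1 array per hen, 24 h after treatment. In the mated group 4 hens were each paired with 1 male. In the SF group 4 hens received sperm-free seminal fluid (SF) in the cloaca, from pools made separately for each of the males used for mating. The 4 control hens had no contact with a male and no infusion, and effects of the fluid and of the act of infusing it cannot be told apart. The hens carried no transgene or deletion, the sources used here do not give their age, and the samples were pieces of whole tissue. Mated, SF and control hens took array numbers 5 to 8, 9 to 12 and 1 to 4 of the same slide, and treatment and slide position cannot be told apart. Values are log2 intensities of hybridised RNA. Differences between group means are also on the log2 scale and carry their standard error (SE) from a linear model fitted with limma, and all p-values are two-sided. Features carry different probes, so the level of one gene is not set against that of another.

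A motile cilium beats by means of dynein motors that stand in an outer and an inner row along its microtubule doublets and pull neighbouring doublets past each other. CCDC39 and CCDC40 form the molecular ruler that spaces the inner arms and radial spokes, the radial spokes link the doublets to the central pair of microtubules, and tektins run inside the doublet wall. Intraflagellar transport (IFT) carries these parts to the growing tip, and the transcription factor FOXJ1 switches on the motile cilium programme. In the oviduct the ciliated cells of the surface epithelium move fluid, eggs and sperm, while the epithelium of the storage tubules is mostly without cilia in birds.

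The arrays had median intensities of 1077 to 1102. On 10 of the 12 arrays all 40 ciliary genes exceeded the random-sequence control. On mated 4 and SF 2, where DNAH8 lay at log2 3.78 and 3.77, 39 did. Between 94.5% and 96.0% of all features exceeded it on each array, so these counts lie near that share. DNAH8, SPAG4 and TEKT5 were below the 25th percentile of all features, which lay at log2 7.43, and the other 37 were above it. A further 107 genes known from cilia and basal bodies were measured, out of a list of 197, and are used below as a marker list of ciliated cells. DNAH8, SPAG4 and TEKT5 apart, the lowest value of a ciliary gene on any array was log2 8.93, for TEKT3 in SF 2. The random-sequence control lay at 3.81 on that array.

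In the outer arms DNAH9, a motor heavy chain, averaged 13.74 ± 0.24 in mated, 13.91 ± 0.14 in SF and 13.74 ± 0.10 in control hens (SD, n = 4 each, as for all means below). Among the inner arm heavy chains DNAH3 averaged 12.95 ± 0.42 in mated, 13.18 ± 0.22 in SF and 12.90 ± 0.26 in control hens. Among the spoke head genes RSPH9 averaged 13.03 ± 0.31 in mated, 13.30 ± 0.08 in SF and 12.88 ± 0.44 in control hens. In each of these 3 genes the 3 groups overlapped. TEKT4 of the doublet wall averaged 11.69 ± 0.45 in mated, 11.92 ± 0.22 in SF and 11.65 ± 0.48 in control hens. IFT172, a subunit of the transport train, averaged 13.19 ± 0.16 in mated, 13.33 ± 0.12 in SF and 13.13 ± 0.17 in control hens. SPAG9, outside the axoneme, averaged 13.42 ± 0.15 in mated, 13.41 ± 0.13 in SF and 13.42 ± 0.20 in control hens. The groups overlapped in these genes as well.

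FOXJ1 lay at 14.07, 14.01, 13.59 and 14.34 in mated hens, at 14.04, 13.97, 14.18 and 14.01 in SF hens and at 14.10, 13.88, 13.69 and 14.17 in control hens. The groups overlapped throughout, and the lowest values were those of mated 3 and control 3. Mating versus control gave a difference of 0.04 (SE 0.16) and SF-infusion versus control 0.09 (SE 0.16), with a 95% interval of -0.26 to 0.44 (limma, unadjusted p = 0.583). The interval allows a difference of either sign for this regulator.

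**Figure D1:**
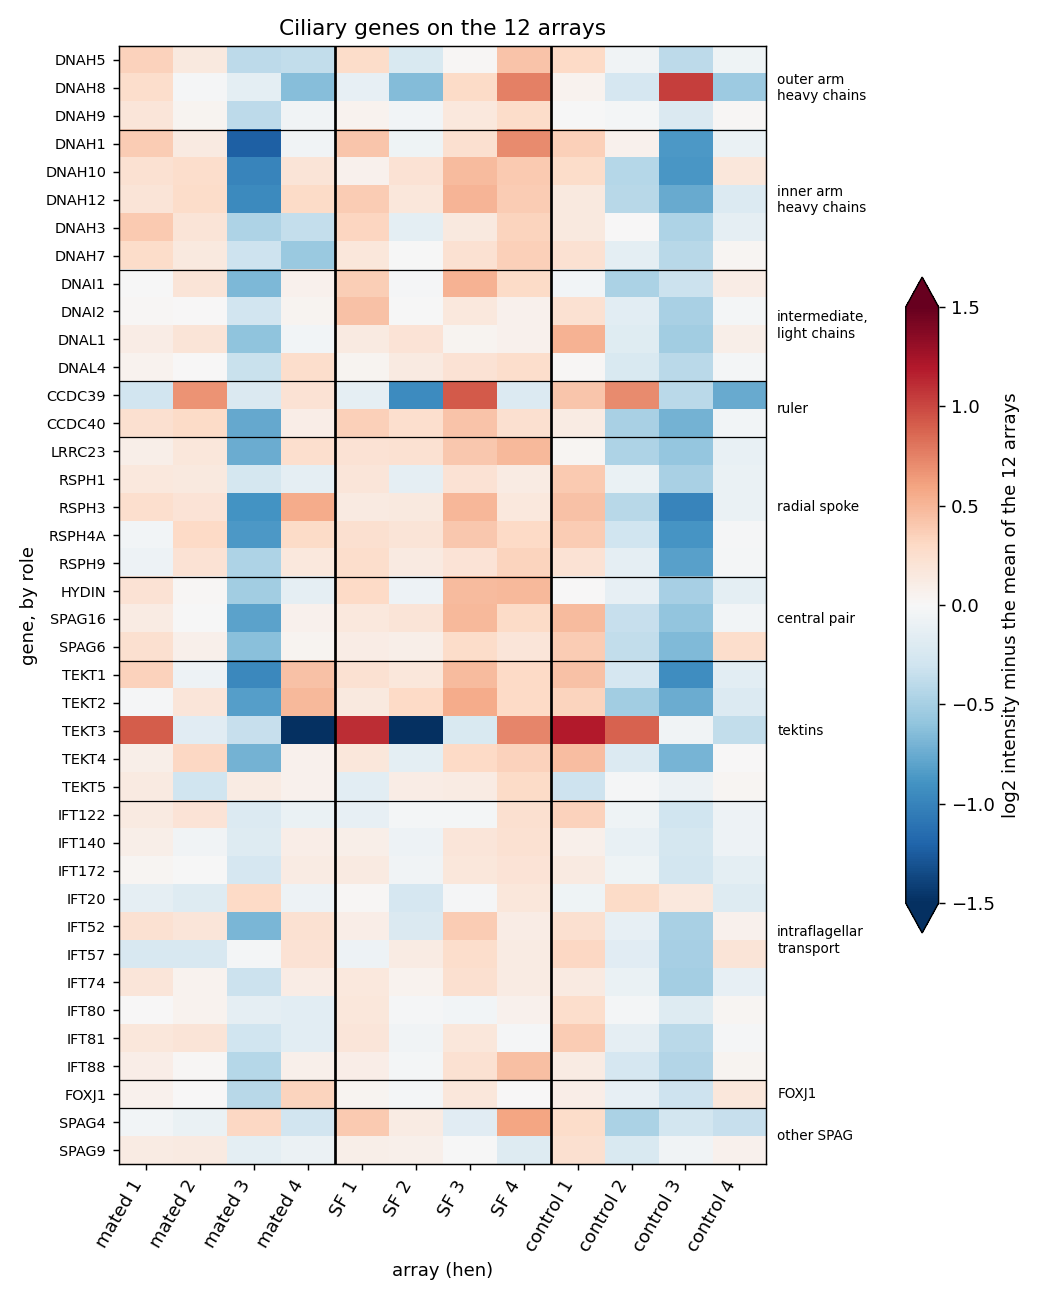
Level of the 40 ciliary genes on each of the 12 arrays, as log2 intensity minus the gene's mean over all arrays, with genes in rows by role and mated, SF and control hens in columns. Mated 3 and control 3 were low for most axonemal genes, while TEKT3 and CCDC39 followed other orders.

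The question of the first comparison was which transcripts differ 24 h after natural mating. For the cilium no gene passed. In mating versus control 0 of the 40 ciliary genes passed an unadjusted threshold of 0.05 (limma), against 2.22% of all features, of which 1.35% were higher and 0.867% lower. The smallest unadjusted p was 0.282, for DNAL4. The mated and control hens overlapped in all 40 genes, against 1.34% of all features in which they did not. The smallest adjusted p was 0.9999 after Benjamini-Hochberg adjustment over all features. The median difference was 0.06, against 0.00071 over all features, and 29 of the 40 genes (72.5%) lay above 0, against 50.2% of all features. Single genes ranged between -0.72 for TEKT3, a tektin whose level spread over 3.23 log2 units among the 12 hens, and 0.29 for RSPH3, a protein of the spoke stalk.

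By role, the medians in mating versus control were 0.15 for the 5 spoke genes, all 5 of which lay above 0, 0.05 for the inner arm chains, -0.02 for the outer arm chains, 0.07 for the intermediate and light chains, 0.03 for the central pair, 0.10 for the tektins and 0.05 for the transport genes. The 95% interval was -0.32 to 0.49 for HYDIN, -0.26 to 0.71 for LRRC23, -0.30 to 0.78 for CCDC40 and -0.36 to 0.87 for DNAH12. It was -0.37 to 0.52 for DNAI1 and -0.15 to 0.46 for DNAL4. In these 6 genes the difference found after SF-infusion, described next, lay inside the interval after mating, at its upper limit in HYDIN.

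The values in mating versus control depended on single arrays. Without control 3 the median difference was -0.05. Without mated 3 the median difference was 0.19. In that fit 3 of the 40 genes passed the unadjusted threshold, which is near the share of all features, 5.64%. These were LRRC23, DNAH12 and CCDC40, at 0.45 (unadjusted p = 0.0151), 0.56 (unadjusted p = 0.0132) and 0.48 (unadjusted p = 0.0252), all higher in mated hens. With mated 3 they differed by 0.22 (SE 0.22), 0.25 (SE 0.28) and 0.24 (SE 0.24).

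The question of the second comparison was what sperm-free fluid is followed by. SF-infusion versus control gave 6 ciliary genes higher and 0 lower at an unadjusted p under 0.05, or 15% of the 40, against 6.47% of all features, of which 4.15% were higher and 2.32% lower. They were LRRC23, HYDIN, CCDC40, DNAH12, DNAI1 and DNAL4, and they stood in the inner arms, the intermediate and light chains, the ruler, the radial spokes and the central pair. The median difference of the 40 genes was 0.27, against 0.0089 over all features, and 35 of them (87.5%) lay above 0, against 51.7% of all features. No gene passed after adjustment (smallest adjusted p = 0.735, limma with Benjamini-Hochberg). These are pieces of whole tissue, so a larger share of ciliated cells and more ciliary RNA per cell cannot be told apart, and likewise fewer cells and less RNA per cell where a hen was low.

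LRRC23, a protein of the radial spoke head, lay at 10.36, 10.44, 9.52 and 10.52 in mated hens, at 10.49, 10.49, 10.67 and 10.76 in SF hens and at 10.30, 9.80, 9.68 and 10.16 in control hens. Every SF hen was above every control hen, and mated 3 was the lowest of all. SF-infusion versus control differed by 0.62 (SE 0.22), which is 1.53-fold, with a 95% interval of 0.13 to 1.10 (limma, unadjusted p = 0.0168). The other spoke genes, RSPH1, RSPH3, RSPH4A and RSPH9, differed by 0.17, 0.50, 0.49 and 0.42 without passing. The median of the 5 spoke genes was 0.49.

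HYDIN, a giant protein of the central pair, lay at 12.67, 12.47, 11.94 and 12.32 in mated hens, at 12.76, 12.38, 12.92 and 12.94 in SF hens and at 12.46, 12.33, 11.95 and 12.30 in control hens. SF 2 lay among the controls and the other SF hens above all of them. The difference between SF and control hens was 0.49 (SE 0.18), or 1.40-fold (limma, unadjusted p = 0.0219). The central pair genes SPAG16 and SPAG6 differed by 0.41 and 0.26 and did not pass.

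CCDC40 of the ruler lay at 12.36, 12.41, 11.35 and 12.22 in mated hens, at 12.48, 12.38, 12.55 and 12.36 in SF hens and at 12.25, 11.64, 11.41 and 12.09 in control hens. The SF hens were all above the controls and close together, while mated 3 and control 3 were the lowest. SF and control hens differed by 0.59 (SE 0.24), or 1.51-fold (limma, unadjusted p = 0.0331). Its partner CCDC39 lay at 9.89, 10.85, 9.96 and 10.39 in mated hens, at 10.04, 9.23, 11.09 and 9.97 in SF hens and at 10.59, 10.89, 9.77 and 9.41 in control hens. CCDC39 had the groups mixed, with the lowest and the highest hen both in the SF group, and differed by -0.08 (SE 0.42). Its further feature gave -0.01 (SE 0.26).

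DNAH12, a heavy chain of the inner arms, lay at 11.87, 11.95, 10.72 and 11.96 in mated hens, at 12.06, 11.85, 12.19 and 12.07 in SF hens and at 11.83, 11.27, 10.93 and 11.47 in control hens. The SF hens were above all controls, though SF 2 and control 1 were nearly level. The difference between SF and control hens was 0.67 (SE 0.28), or 1.59-fold (limma, unadjusted p = 0.0354), and was the highest of the 40 genes. The other inner arm chains, DNAH1, DNAH3, DNAH7 and DNAH10, differed by 0.46, 0.28, 0.27 and 0.50 without passing, and the further feature of DNAH1 by 0.45. The median of the 5 inner arm chains was 0.46, while that of the outer arm chains DNAH5, DNAH8 and DNAH9 was 0.17 with 0 of 3 past the threshold. Of the inner arm chains 1 of 5 passed. DNAH8 lay near the random-sequence control, and DNAI1, an outer arm chain counted with the intermediate and light chains, passed at 0.47. The difference between the rows was not tested.

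DNAI1, an intermediate chain of the outer arm, lay at 11.93, 12.14, 11.27 and 12.01 in mated hens, at 12.32, 11.93, 12.46 and 12.23 in SF hens and at 11.90, 11.47, 11.62 and 12.05 in control hens. SF 2 was below control 4, so the groups overlapped by a hen. SF and control hens differed by 0.47 (SE 0.20), or 1.39-fold (limma, unadjusted p = 0.0400). DNAL4, a dynein light chain, lay at 13.79, 13.75, 13.41 and 14.00 in mated hens, at 13.78, 13.88, 13.95 and 14.00 in SF hens and at 13.76, 13.51, 13.33 and 13.71 in control hens. All SF hens were above the controls, by a narrow margin at SF 1, and the difference was 0.32 (SE 0.14), or 1.25-fold (limma, unadjusted p = 0.0399). The chains DNAI2 and DNAL1 differed by 0.27 and 0.14 and did not pass.

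The SF hens did not overlap the controls, and lay above them, in LRRC23, CCDC40, DNAH12 and DNAL4, which is 10% of the 40 genes, against 2.47% of all features. Of the tektins 0 of 5 passed. TEKT2 came nearest at 0.61 (SE 0.29, limma, unadjusted p = 0.0579), TEKT1 differed by 0.52, TEKT4 by 0.28, TEKT5 by 0.18 and TEKT3 by -0.52 (SE 0.70). Of the transport genes with IFT names 0 of 10 passed and 9 lay above 0. Their median of 0.16 covered a range of -0.07 for IFT20 to 0.32 for IFT88. Among the other ciliary genes below, the transport genes TTC21B and WDR34 passed, and others, WDR19 and WDR35 among them, did not. SPAG4 and SPAG9 differed by 0.44 and -0.02, and without this pair the median of the remaining 38 genes was 0.27.

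**Figure D2:**
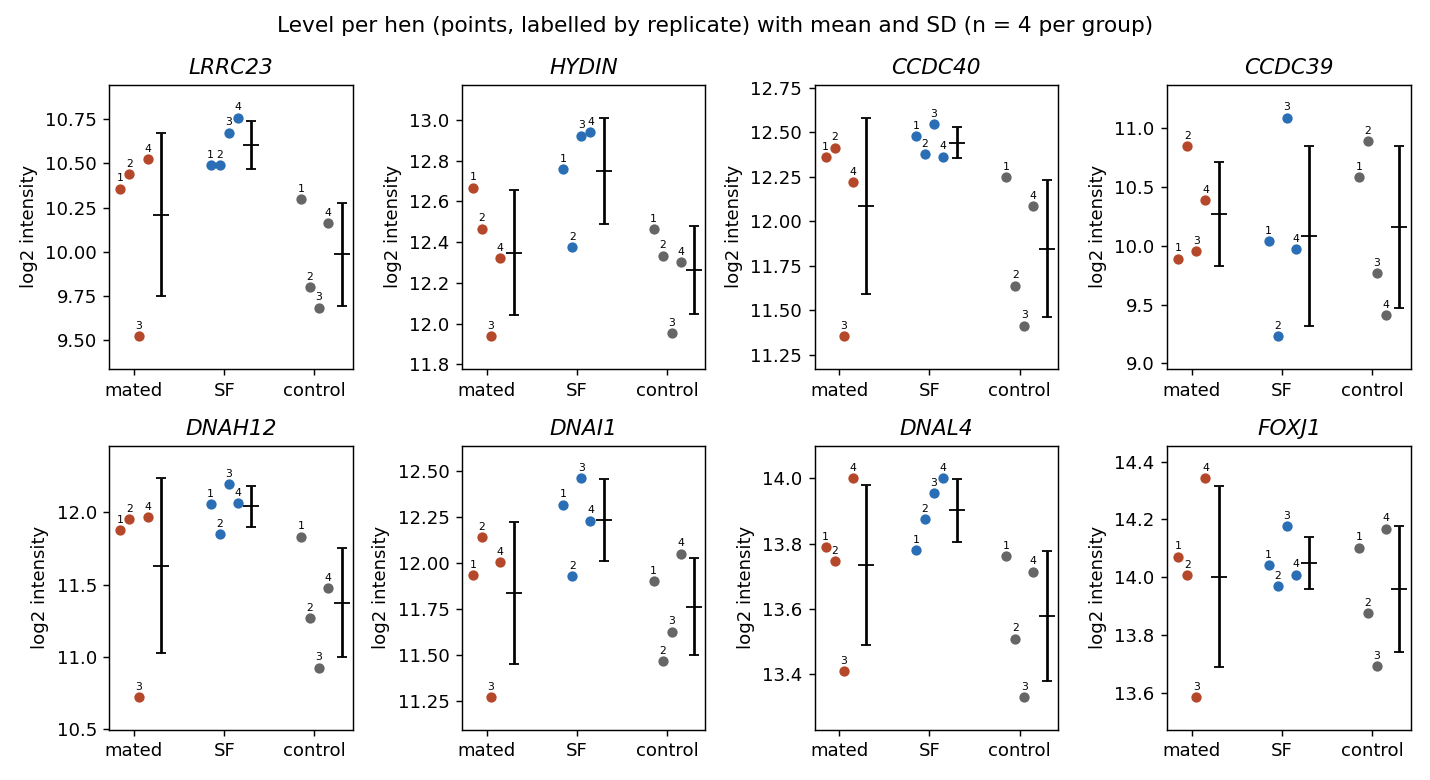
Log2 intensity of 8 ciliary genes in each hen, as points numbered by replicate, with the mean and SD (n = 4) to the right, for mated, SF and control hens. The SF hens lie above all controls in LRRC23, CCDC40, DNAH12 and DNAL4, and mated 3 is the lowest hen in LRRC23, HYDIN, CCDC40, DNAH12, DNAI1 and FOXJ1.

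The count of 6 moved with single hens. Without control 3, 0 of the 40 genes passed, against 4.92% of all features in that fit, and their median difference was 0.16. Without control 1 there were 17, against 5.56% of all features, and a median of 0.38. Without control 2, SF 3 or SF 4 there were 2, against 4.59%, 4.02% and 6.01% of all features. Without SF 1 there were 3, against 9.38%, and without mated 3 there were 8, against 8.64%. LRRC23 was lost only without control 3 (0.52, unadjusted p = 0.0512). HYDIN was lost without control 3, SF 3 or SF 4, with p up to 0.0681. CCDC40 was lost without control 2, control 3, SF 1 or SF 3, with p up to 0.1002. DNAH12, DNAI1 and DNAL4 were lost without any one of 6, 5 and 7 of the arrays, with p up to 0.104, 0.113 and 0.119. All 6 differences kept their sign in each of these fits.

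Mated and SF hens were then compared with each other. In mating versus SF-infusion 0 of the 40 genes passed the unadjusted threshold, against 4.7% of all features (2.04% higher and 2.66% lower), and the smallest p was 0.0501 for HYDIN at -0.40 (SE 0.18, limma). The smallest adjusted p over all features was 0.998 among them. The median difference was -0.20, against -0.0068 over all features, and 2 of the 40 genes (5%) lay above 0, CCDC39 at 0.19 and SPAG9 at 0.01, against 48.5% of all features. Without mated 3 the median was -0.09. By role, the medians were -0.40 for the central pair, -0.36 for the inner arm chains, -0.28 for the spoke genes, -0.23 for the tektins, -0.21 for the intermediate and light chains, -0.19 for the outer arm chains and -0.11 for the transport genes, all 10 of which lay below 0.

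SPAG16, a central pair protein singled out after its values were seen, was the only 1 of the 40 genes whose groups did not overlap, which is 2.5%, against 1.5% of all features lower in mated hens. It lay at 11.28, 11.16, 10.36 and 11.22 in mated hens and at 11.32, 11.36, 11.65 and 11.45 in SF hens. The difference was -0.44 (SE 0.25, limma, unadjusted p = 0.105). Without SF 2 the count was 2, HYDIN at -0.52 (unadjusted p = 0.0145) and DNAI1 at -0.50 (unadjusted p = 0.0417). This count was not set against the share of all features in that fit.

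The F test over both treatments gave 2 of the 40 genes, HYDIN and LRRC23 (limma, unadjusted p = 0.0479 and 0.0477), against 4.36% of all features. Both comparisons against control share the 4 control arrays, so their values stand side by side and were not correlated.

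**Figure D3:**
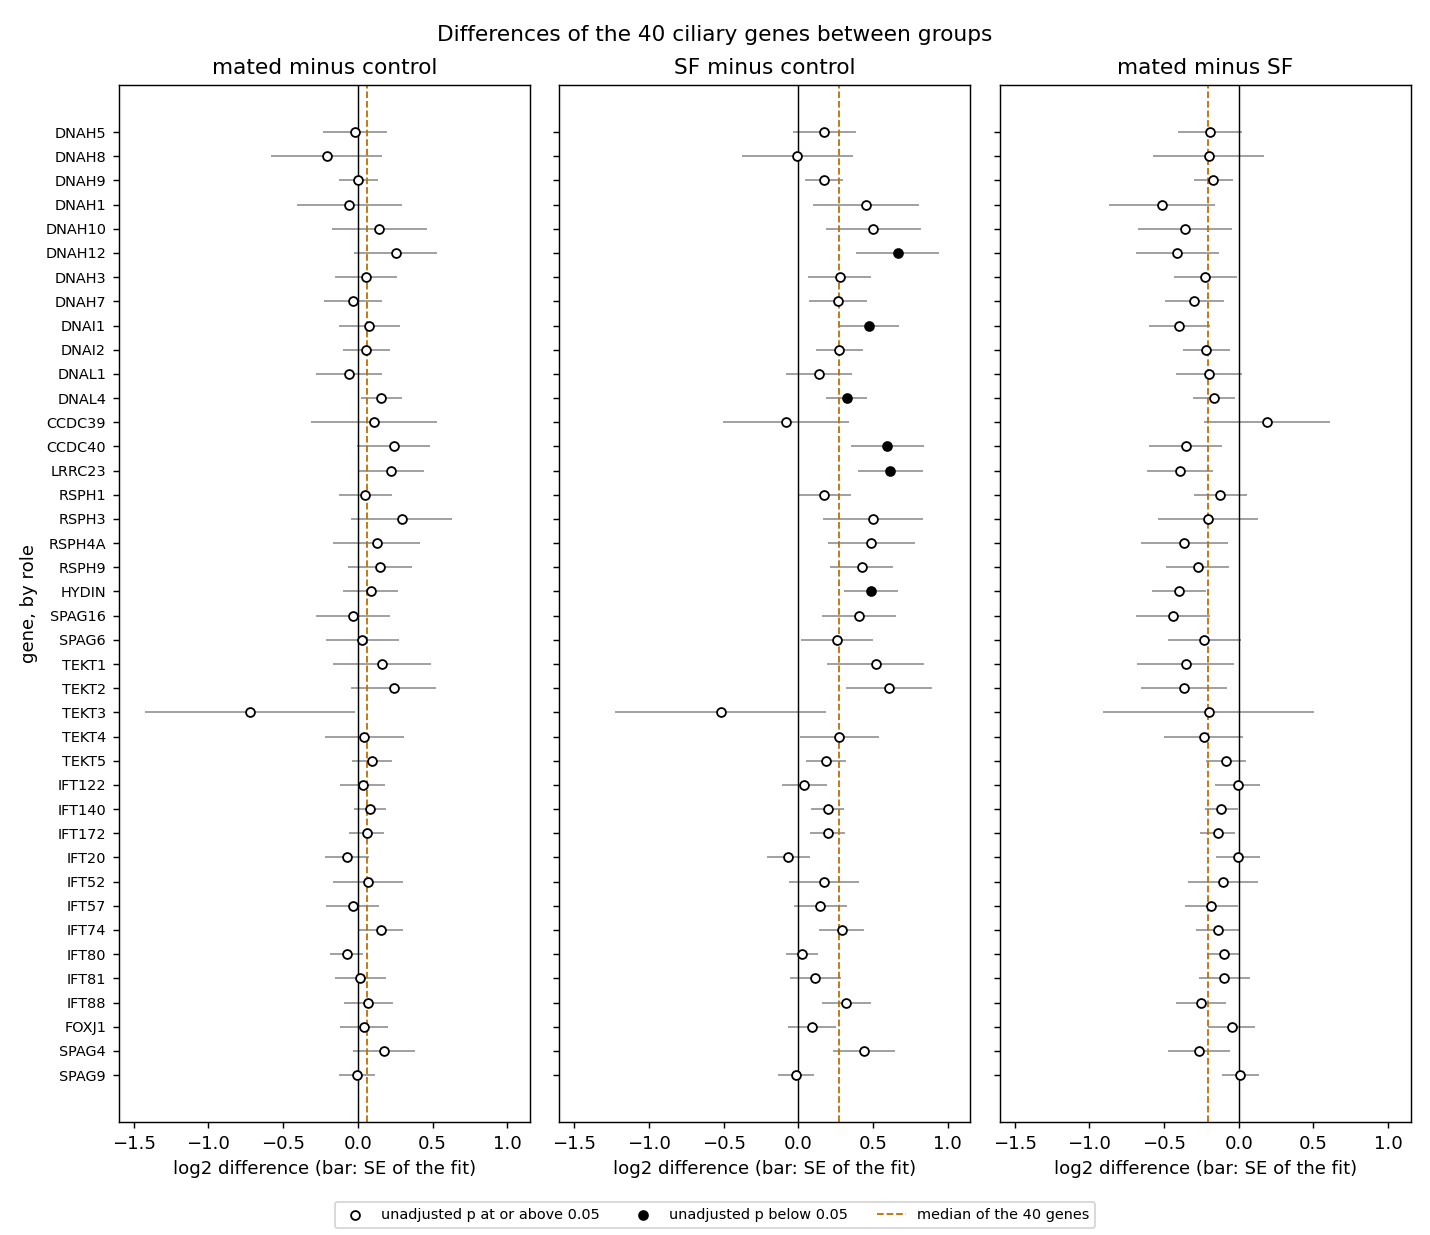
Difference between group means of each of the 40 ciliary genes for mated minus control, SF minus control and mated minus SF, in log2 units with the SE of the fit as bars, filled where the unadjusted limma p was under 0.05. The dashed medians lie at 0.06, 0.27 and -0.20.

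The ciliary genes varied together from hen to hen within each group. In mated 3 their median lay at -0.47 relative to the mean of the other mated hens, and 36 of 40 (90%) were below it, against 48% of all features. In control 3 the median lay at -0.48 relative to the other controls and 37 of 40 (92.5%) were below, against 47.4% of all features. In SF 2 the median was -0.16, with 36 of 40 below and 55.1% of all features. Control 1 was at the other end, at 0.47, with 3 of 40 below, against 51.1% of all features.

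Most of the genes were low in both of these hens. Of the 40, 35 were below the rest of the group in mated 3 and also in control 3, and IFT20 and TEKT5 were below in neither. This count was not set against a share of all features. Deviations of mated 3 and control 3 from their groups correlated at 0.62 over all features and 0.65 over the 40 genes. The departure these hens shared was therefore not confined to the ciliary genes. DNAH8 was below only in mated 3 and IFT57 and SPAG4 only in control 3, all named after their values were seen. Mated 3 held the lowest value of all 12 arrays for 16 genes, against 15.5% of all features. Control 3 held it for another 16, against 7.64% of all features. The highest value lay in SF 3 and SF 4 for 11 and 12 genes and in control 1 for 10. No share of all features is given for these counts. In these hens, in the same order, 49.1%, 40.6% and 52.2% of all features lay below their mean over the 12 arrays. SF 4 was thus raised for features in general as well. The deficits in mated 3 reached -1.38 on the log2 scale. Of the 12 arrays mated 3 had the lowest median intensity (1077) and the highest random-sequence control (log2 3.95). It also had the lowest weight (0.40) when limma weighted the arrays. The part of array or RNA quality in its low levels was not tested.

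TEKT3 and the small transport protein IFT20 did not follow this order. TEKT3 lay at 11.86, 10.79, 10.62 and 9.34 in mated hens, at 12.07, 8.93, 10.73 and 11.69 in SF hens and at 12.15, 11.85, 10.90 and 10.59 in control hens. It was lowest in SF 2 and mated 4 and highest in control 1, and its SD within the groups was 1.04 in mated, 1.40 in SF and 0.75 in control hens. IFT20 lay at 10.99, 10.94, 11.42 and 11.05 in mated hens, at 11.15, 10.87, 11.11 and 11.29 in SF hens and at 11.06, 11.42, 11.28 and 10.93 in control hens, with mated 3 the highest mated hen. The transport genes had a median range over the 12 hens of 0.69, against 0.83 for the outer arm chains, 1.03 for the intermediate and light chains, 1.04 for the central pair, 1.23 for the spoke genes, 1.39 for the tektins, 1.46 for the inner arm chains and 0.90 for all features.

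Averaged over the 40 genes and relative to the mean of all arrays, the level was 0.14, 0.10, -0.45 and -0.0019 in mated hens, 0.18, -0.06, 0.25 and 0.27 in SF hens and 0.25, -0.15, -0.44 and -0.07 in control hens. SF 1, SF 3, SF 4 and control 1 formed the upper end, and mated 3 and control 3 stood well below the rest. The median SD within the group was 0.365 in mated, 0.153 in SF and 0.319 in control hens for the 40 genes. For all features it was 0.251 in mated, 0.238 in SF and 0.239 in control hens. The SF group had the smallest of the 3 SDs for 31 of the 40 genes (77.5%), against 36.5% of all features.

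Other genes of the cilium had their lowest levels in the same hens. The mean level of the 107 genes was 0.14, 0.09, -0.48 and -0.0052 in mated hens, 0.21, -0.02, 0.20 and 0.23 in SF hens and 0.29, -0.11, -0.45 and -0.10 in control hens. Mated 3 and control 3 were again the lowest of the 12. In SF-infusion versus control 9 of the 107 genes were higher and 0 lower at an unadjusted p under 0.05 (8.41%), against 4.15% of all features higher. Their median was 0.25 and 98 (91.6%) lay above 0, against 51.7% of all features.

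The 9 were GAS8, a subunit of the nexin-dynein regulatory complex, at 0.35 (SE 0.11), C21orf2 at 0.34, the retrograde transport protein TTC21B at 0.37, WDR34, an intermediate chain of the transport dynein, at 0.33, AGBL2, which trims the tail of tubulin, at 0.53, CCDC113 at 0.73, TTC25, which docks the outer arms, at 0.42, LRGUK at 0.50 and CCDC67, which builds the deuterosome from which basal bodies arise, at 0.92 (SE 0.41). Unadjusted limma p-values were between 0.00989 for GAS8 and 0.0444 for CCDC67. In mating versus control 0 were higher and 1 was lower, the kinase ICK at -0.24 (SE 0.11, limma, unadjusted p = 0.0480), which is 0.935% against 0.867% of all features lower, with a median of 0.04. In mating versus SF-infusion 5 were lower, DLEC1 at -0.65, AGBL2 at -0.55, WDR35 at -0.42, CCDC78 at -0.59 and C21orf2 at -0.25, which is 4.67% against 2.66% of all features lower, and the median was -0.19.

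Adding the mean level of the 107 genes to the model as a covariate, a fit chosen after seeing the data, left 1 of the 40 genes past the unadjusted threshold in SF-infusion versus control, LRRC23, against 7.09% of all features, and a median difference of 0.05. HYDIN then differed by 0.25 (unadjusted p = 0.0542), CCDC40 by 0.26 and DNAH12 by 0.27. The 107 genes had a median difference of 0.25 in this comparison themselves and varied with the 40 genes from hen to hen. Such a covariate lowers the difference of the 40 genes in any case, so no conclusion is drawn from this fit. With control 3 and mated 3 both left out, also chosen after seeing the data, 5 genes passed, against 6.48% of all features, and the median was 0.16.

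Markers of other epithelia went with the ciliary genes in some hens and not in others. The mean level of 12 markers taken as squamous ranged over -0.91 to 0.81 in mated hens. It ranged over 0.06 to 0.90 in SF and -1.25 to 0.61 in control hens. Mated 3 and control 3 were the lowest of their groups. SF 2, the lowest SF hen for the ciliary genes, was at 0.75, and control 1, the highest control for them, at -0.40. The place of these markers in the tissue was not tested. In SF-infusion versus control 5 of the 12 were higher and 0 lower at an unadjusted p under 0.05, against 4.15% of all features higher, with a median of 1.03. After mating 0 of the 12 passed and the median was 0.55. The genes higher after SF-infusion included the basal cell factor TP63 at 1.84 (SE 0.74) and the keratin KRT5 at 1.89 (SE 0.77). The mean level of 11 shell gland and columnar markers ranged over -0.99 to 0.61 in mated, -1.26 to 0.28 in SF and -0.45 to 1.72 in control hens. Control 3 and mated 3 were the highest of their groups. SF 2, though low for the ciliary genes, was the lowest of its group at -1.26. Mated 1, the highest mated hen for the ciliary genes, was at 0.47. After SF-infusion 2 of the 11 were lower and 0 higher, against 2.32% of all features lower. They were the matrix protein SPP1 at -3.18 (SE 1.07) and the calcium-binding CALB1 at -3.31 (SE 1.48). The markers taken as columnar, KRT7, KRT8, KRT19, CDH1 and EPCAM, differed by -0.14, -0.04, 0.05, 0.02 and -0.00455 and did not pass. KRT7 and EPCAM are current names, while KRT19 is the array name of a feature now listed as KRT24. GKN2, CALB1 and SPP1 ranged over 10.2, 8.46 and 6.48 log2 units among the 12 hens and weigh most in the list mean. After mating 1 of the 11 was lower and 0 higher, RARRES1 at -1.001 (SE 0.41), against 0.867% of all features lower. The random-sequence control lay at log2 3.81 to 3.95. CALB1 was near it at 3.92 in SF 2, 4.10 in SF 3, 4.13 in mated 4 and 4.17 in control 1. Its highest value was 12.38, in control 3, and GKN2 fell to 4.35 in SF 2. The part of either list in the levels of the ciliary genes was not tested.

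Stored sperm carry axonemes of their own, and 10 sperm and testis markers were read for this reason. In mating versus control 1 of the 10 was higher and 0 lower, SYCP3, a protein of meiotic chromosomes, at 0.35 (SE 0.16, limma, unadjusted p = 0.0481), against 1.35% of all features higher, and the median was 0.08. In SF-infusion versus control 0 passed and the median was 0.0077. Of the smooth muscle (5), T lymphocyte (8) and red blood cell (5) markers 0 passed in either treatment against control. After mating all 8 T lymphocyte markers lay above 0, with a median of 0.55, against 50.2% of all features above 0. Relative to the mean of all arrays, their mean level was -0.21, 0.35, -0.39 and 1.31 in mated 1 to 4, so mated 4 weighs most. All 5 red blood cell markers lay below 0, with a median of -0.53. After SF-infusion the medians of these lists were 0.41 and -0.10.

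**Figure D4:**
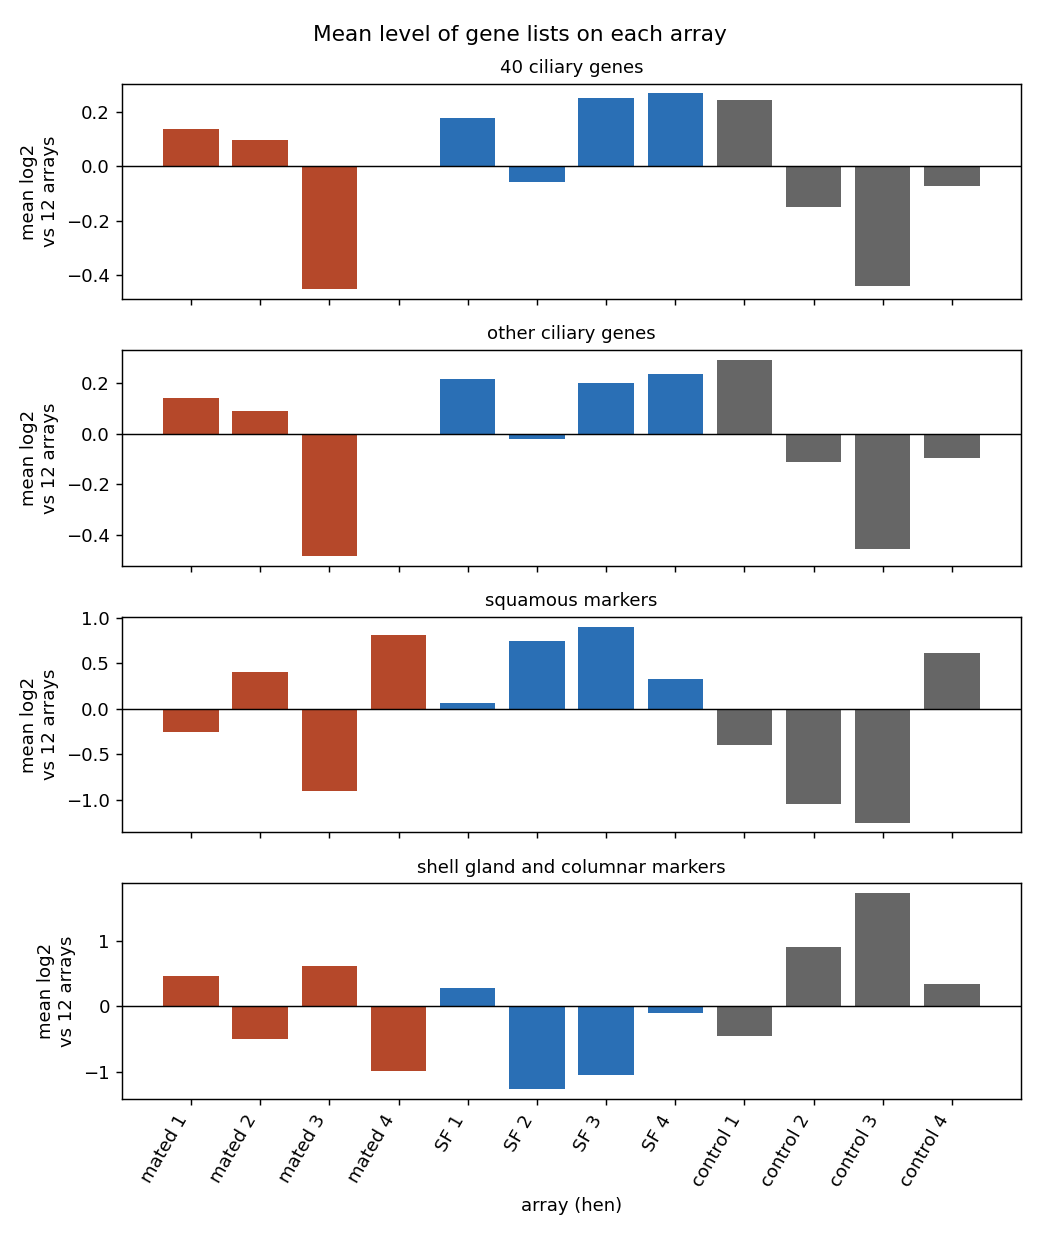
Mean log2 level of the 40 ciliary genes, 107 other ciliary genes, 12 squamous and 11 shell gland and columnar markers on each array, relative to the mean of the 12 arrays, for mated, SF and control hens. Mated 3 and control 3 are the lowest in both ciliary lists.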

How the data were processed

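Each of the 12 hens gave 1 Cy3-labelled NimbleGen array. The authors deposited linear intensity values after robust multichip averaging, which corrects background, gives all arrays the same intensity distribution (quantile normalisation) and joins a feature's probes into 1 value, so ciliary RNA is seen only relative to other RNA. The log2 of each intensity was taken with no pseudocount, the lowest value being 4.22. All 12 arrays and 37374 features entered 1 model with a mean per group (limma 3.58.1, R 4.3.3, empirical Bayes), with Benjamini-Hochberg adjustment over every feature. The unadjusted level of 0.05 is the one the study calls suggestive. The number of arrays limits the precision, and p-values rest on 4 separate hens per group.

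Symbols were read from the feature names, and 37 of the 40 are current in GRCg7b. Expressed sequence tags (15394 features) carry no gene name and were not searched. No coordinates or sequences are printed, because the build of the array design is not given in the sources used here. Ciliary genes past unadjusted p 0.05 in any comparison were given hen by hen, with FOXJ1, HYDIN, LRRC23, CCDC39 and CCDC40 in any case. The brightest gene of each role was given with its means, or hen by hen where it was DNAL4, HYDIN, CCDC40 or FOXJ1. The genes and lists were chosen with earlier results of these data known.

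The analysis was repeated with arrays centred on their medians, with a further quantile normalisation, from the table of the whole series, on features at or above the 25th percentile or the median, on the compared groups alone, with a replicate block, an array number covariate, trended and robust moderation, array weights, the mean of a symbol's features, without the 3 dim genes and without each array.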

Additional observations from a re-analysis of the deposited data

Results flagged for a closer look

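Of 30 groups of 4 arrays examined for a value far from the others, 3 had one, and chance marks about 1 in 20 groups. DNAH12 in mated hens had its lowest value, 10.72, in mated 3, with a gap of 0.927 of the group's range. LRRC23 in mated hens had its lowest value, 9.52, also in mated 3, with a gap of 0.833 of the range. The mean level of the 107 other ciliary genes in SF hens was lowest, at -0.02, in SF 2, with a gap of 0.872 of the range.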

How the results depend on the processing

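In the 26 alternatives none of the 6 genes past the threshold in SF-infusion versus control changed sign there, while differences near 0 did elsewhere, none of them past the threshold. Array numbers follow the groups on the slide, so the array number covariate overlaps with treatment and its estimates are poorly determined. With it FOXJ1 turned to -0.026 in mating versus control, -0.047 in SF-infusion versus control and 0.020 in mating versus SF-infusion. With the other ciliary genes as a covariate it turned to -0.077 in SF-infusion versus control, and to 0.0999 in mating versus SF-infusion, and to 0.091 in mating versus SF-infusion with control 3 and mated 3 both left out. CCDC39 turned to 0.55 in SF-infusion versus control and -0.13 in mating versus SF-infusion with the array number covariate, and to 0.048 in SF-infusion versus control under array weights. When an array was left out, mating versus control ranged over -0.021 to 0.22 for HYDIN, -0.024 to 0.27 for DNAI1, -0.072 to 0.18 for FOXJ1 and -0.14 to 0.35 for CCDC39, SF-infusion versus control over -0.42 to 0.20 for CCDC39, and mating versus SF-infusion over -0.16 to 0.091 for FOXJ1 and -0.095 to 0.52 for CCDC39. In SF-infusion versus control the 6 genes past the unadjusted threshold became 17 under array weights and 1 with the other ciliary genes as a covariate. They became 0 once array number entered as a covariate (median difference 0.74), against 2.52% of all features. The share of all features called moved with the fit. Where no share stands beside a count here, the count does not separate the ciliary genes from features in general. Leaving out an array gave 0 to 17 genes and medians of 0.16 to 0.38. In mating versus control the 0 became 3 with array weights and 2 with control 3 and mated 3 both left out, and 0 to 3 when an array was left out, with medians of -0.05 to 0.19. In mating versus SF-infusion the 0 became 1, HYDIN, with quantile normalisation over features, against 4.99% of all features. It also became 1, HYDIN, with features at or above the 25th percentile (2.6%) or the median (1.98%), and with trended and robust moderation (4.24%). It was 0 to 2 when an array was left out, with medians of -0.29 to -0.09 (-0.09 without mated 3). The F test's 2 genes became 7 under array weights and 0 to 7 when an array was left out. They became 1 with quantile normalisation (4.48% of all features) and 1 with trended and robust moderation (3.91%). With either covariate they became 0 (2.69% of all features for array number). The causes of these shifts were not tested.

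Deviations of same-numbered hens correlated over all features at between -0.36 and 0.62, with both signs among them, so the numbers were not taken to pair the hens. Over the 40 genes alone the 4 correlations were 0.11 to 0.65 between mated and control hens, -0.60 to 0.31 between SF and control hens and -0.70 to 0.61 between mated and SF hens. With the replicate number as a block 7 genes passed for SF-infusion against control, where 7.09% of all features did. For mating against control 0 passed (2.52% of all features), for mating against SF-infusion 0 (4.89%) and in the F test 1 (4.78%). DNAI1 missed the threshold under the block in SF-infusion against control.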
